A study of Mus musculus with 20 samples.

Results

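The proteasome subunit genes were described across 20 expression arrays of mouse erythroid progenitors. Members were the genes whose annotated symbol begins with Psm, goes on with a letter from a to g and then a digit, and a gene with several probe sets that name it alone was read from the brightest of them over the 20 arrays. The rule selects by symbol and not by a measured difference, but was itself chosen with earlier results of these data known. It found 49 of 18193 genes. They comprised 14 core genes, 17 regulatory genes, 4 immunoproteasome genes, 3 assembly chaperones of the 19S particle, 4 assembly chaperones of the 20S particle and 3 other activators or inhibitors. A further 4 matched by symbol only: Psma8, an alpha subunit of the testis, Psmb11, a beta subunit of the thymus, and Psmc3ip and Psme3ip1, which are no subunits. Psme2 was left out because its probe set also names Psme2b.

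The cells were CFU-E (colony-forming units of the erythroid lineage), progenitors that need erythropoietin (Epo) to survive and mature, from fetal livers of BALB/c embryos at E13.5; cells of other lineages had been depleted with magnetic beads. There were 12 arrays of cells given 0.5 U/ml Epo, at each hour from 0 to 8 h and at 14, 19 and 24 h, and 8 arrays of cells left without Epo, at each hour from 0 to 7 h. According to the series design, cells of both series had been starved for 1 h in serum-free medium after sorting, whereas the treatment protocol names a culture of 12 to 14 h with fetal calf serum and Epo, and the labels do not reconcile these statements. There was 1 array per treatment and time. No label says that separate cultures were sampled, so p-values here reflect how arrays of different hours scatter around each fit. This scatter may be technical. Where a fit has no term for a trend, the scatter also holds any drift over the hours. Levels are log2 values as the authors deposited them, so that a difference of 1 is a 2-fold difference.

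The proteasome degrades proteins that carry ubiquitin chains. Its barrel-shaped 20S core consists of alpha rings, which gate the entry, and beta rings, which hold the catalytic sites. The 19S regulatory particle caps the core: its base contains a ring of ATPases that unfold the substrate and receptors that bind ubiquitin, and its lid removes the ubiquitin chain. Interferon-inducible catalytic subunits can replace the constitutive ones and form the immunoproteasome. Erythroid precursors rely on ubiquitin-dependent degradation when they clear organelles and most proteins other than hemoglobin during maturation.

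The series already differed at 0 h, and this touches every comparison between them. Of the 49 members 30 were higher at 0 h with Epo, against 48.4% of all genes. Markers of hepatocytes, a cell type that the fetal liver holds in number, were higher at 0 h with Epo in 9 of 9 genes (median difference 1.52), and 7 of 9 were called higher with Epo at 1 to 7 h. The log2 of their summed linear level ranged from 12.81 to 14.43 with Epo and from 12.30 to 13.57 without Epo at 1 to 7 h. Alb, the hepatocyte albumin gene, ranged from 6.43 to 13.16 over the 12 arrays with Epo and from 10.26 to 12.09 over the 8 without. The erythroid markers themselves differed between the series: 8 of 9 were lower at 0 h with Epo, and 6 of 9 were called lower and 0 higher with Epo at 1 to 7 h (median difference -0.398). Kit, the stem cell factor receptor of erythroid progenitors, lay at 6.99 or below on every array with Epo and between 7.75 and 8.39 on those without, and was lower by 1.40 at 0 h (difference -1.40). The erythroid regulator genes Gata1 (9.81 to 10.92 with Epo and 10.53 to 11.37 without) and Klf1 and the transferrin receptor gene Tfrc were bright on every array, while the probe set of the alpha globin gene Hba-a1 lay at 3.22 to 3.80 with Epo and 3.19 to 3.59 without. Granulocyte markers were lower at 0 h with Epo in 9 of 9 genes (median difference -0.934), and at 1 to 7 h 1 was called higher and 2 lower. The log2 of their summed linear level at 1 to 7 h ranged from 8.46 to 8.88 with Epo and from 8.53 to 10.20 without. Of 5 megakaryocyte markers 1 was called higher and 1 lower with Epo, and of 6 endothelial and stromal markers 1 was called higher. Of the macrophage, lymphoid and dendritic lists 0 of 25 genes were called at an adjusted p under 0.05 in limma, and 3 had an unadjusted p under 0.05. Among the macrophage markers, Cd68 and Adgre1 stayed below 4 on every array. Others of that list were brighter: Csf1r lay at 4.71 to 6.32 with Epo and 4.86 to 5.34 without. Lyz2 lay at 4.34 to 6.21 with Epo and 4.52 to 5.57 without. What part these markers' cells had in the proteasome results was not tested. In RNA from whole samples, fewer cells of a type and less RNA per cell cannot be told apart.

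Proteasome genes were on balance higher with Epo at 1 to 7 h, before any 0 h difference was subtracted. The mean of the 7 matched differences was called higher with Epo for 26 members and lower for 7, and 16 were not called. Over all genes 38.4% were called, 18.2% higher and 20.2% lower. The median difference was 0.312 over the members and 0.0253 over all genes. By class, 11 of 14 core genes were called higher and 1 lower, 6 of 17 regulatory genes were called higher and 2 lower, and 3 of 4 immunoproteasome genes were called higher and 0 lower. The median difference was 0.557 over the core genes, 0.192 over the regulatory genes, 0.295 over the immunoproteasome genes and 0.598 over the 4 assembly chaperones of the 20S particle. The 7 arrays with Epo lay wholly above the 7 without for 17 members (6.56% of all genes) and wholly below for 3 (7.31% of all genes).

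**Figure D1:**
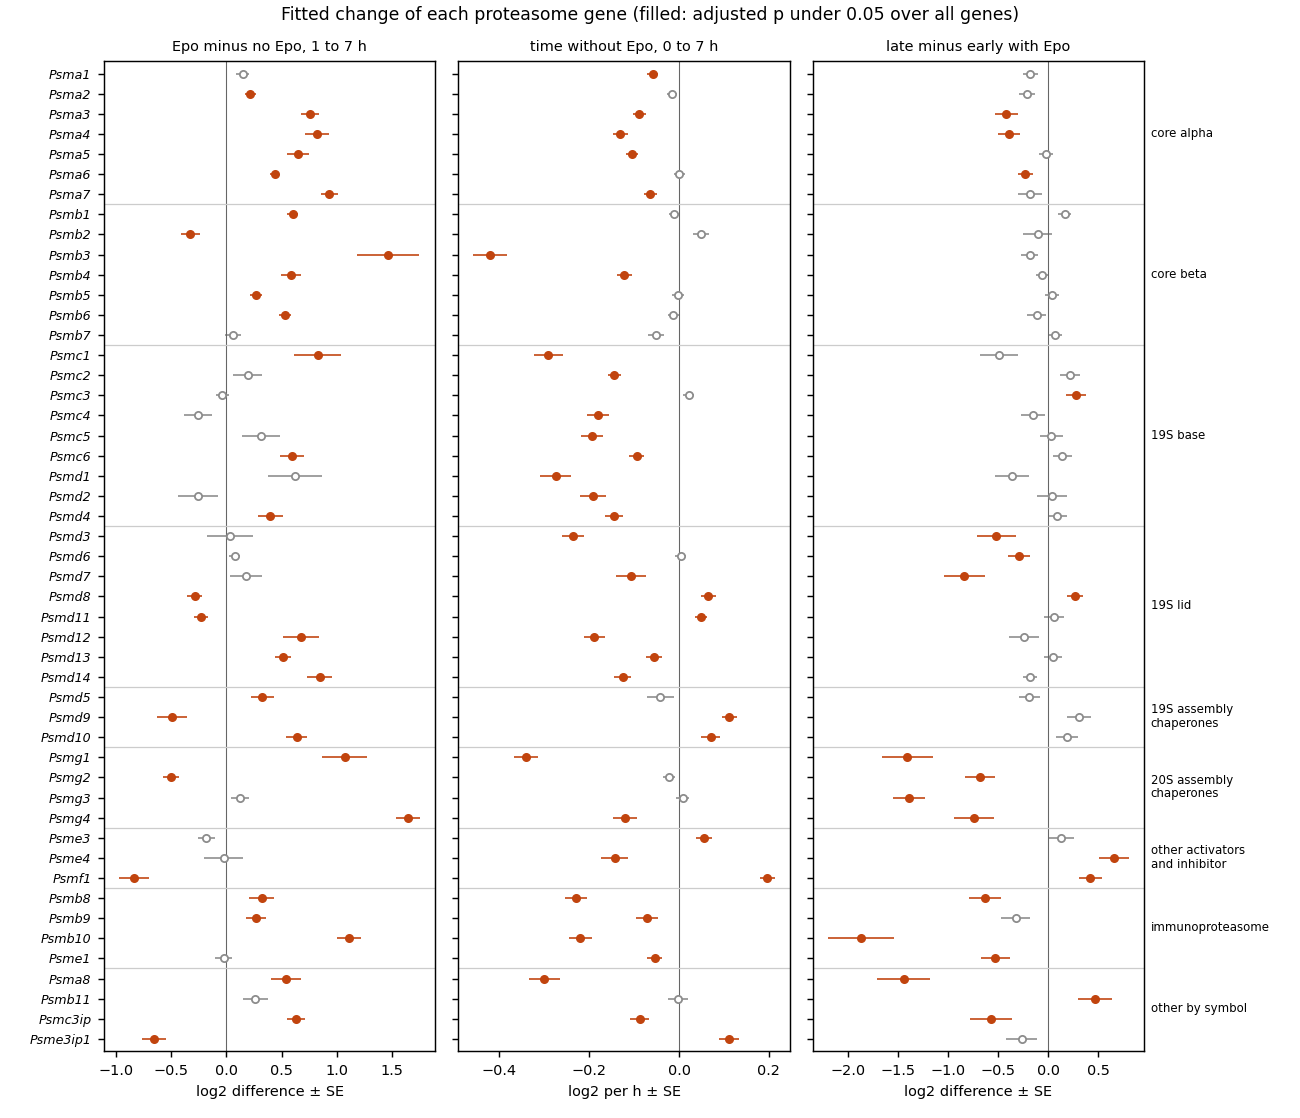
Fitted change of each of the 49 genes with its standard error (horizontal bars) in 3 comparisons: the mean log2 difference with Epo minus without Epo at 1 to 7 h, the log2 slope per hour without Epo, and the mean of 14, 19 and 24 h minus the mean of 1 to 8 h with Epo. Filled points had an adjusted p under 0.05 over all genes, 26 of them to the right of 0 and 7 to the left in the left panel, 7 and 29 in the middle panel, and 5 and 15 in the right panel.

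The alpha subunit genes formed the most uniform group. Psma7 lay between 11.71 and 11.95 (median 11.84) with Epo and between 10.68 and 11.07 (median 10.99) without, and the arrays of the series did not overlap. Its mean difference was 0.93 ± 0.08 (SE, 7 pairs, adjusted p = 4.84e-06). Psma4 lay between 11.88 and 12.06 (median 12.00) with Epo and between 10.84 and 11.62 (median 11.13) without, again with no overlap, a difference of 0.82 ± 0.11 (adjusted p = 0.000133). All 7 alpha genes were higher with Epo in each of the 7 pairs. For Psma3, Psma5, Psma6 and Psma2 the differences were 0.76 ± 0.08, 0.64 ± 0.10, 0.44 ± 0.04 and 0.22 ± 0.05, with adjusted p-values of 1.3e-05 to 0.0043. Psma1 (0.15 ± 0.06, adjusted p = 0.0779) was not called.

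Among the beta subunit genes, Psmb3, a structural subunit of the beta ring, had the largest difference of the core. It lay between 11.49 and 11.71 (median 11.62) with Epo and between 9.03 and 11.75 (median 9.99) without. The series overlapped only through the 1 h array without Epo, at 11.75, and were apart by 2.61 at 7 h, where Psmb3 read 11.64 with Epo and 9.03 without. The mean difference was 1.46 ± 0.28 (adjusted p = 0.00153). The genes of the constitutive catalytic subunits were Psmb5, which carries the chymotrypsin-like activity, Psmb6, which carries the caspase-like activity, and Psmb7, which carries the trypsin-like activity. Psmb5 lay between 11.47 and 11.67 (median 11.61) with Epo and between 11.23 and 11.44 (median 11.33) without, with no overlap, a difference of 0.27 ± 0.06 (adjusted p = 0.00279). Psmb6 differed by 0.53 ± 0.05 (adjusted p = 1.82e-05), also without overlap, and Psmb7 by 0.06 ± 0.07 (adjusted p = 0.573). Psmb1 (0.60 ± 0.05) and Psmb4 (0.58 ± 0.09) were called higher, but the other probe set of Psmb4 differed by 0.0017 only. Psmb2 was the exception among core genes: it lay between 10.24 and 10.90 (median 10.41) with Epo and between 10.59 and 10.95 (median 10.80) without, and was lower with Epo in 6 of 7 pairs by 0.33 on average (-0.33 ± 0.09, adjusted p = 0.0113). Its difference was already -0.35 at 0 h.

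Much of the core difference was present at 0 h. Of the 14 core genes 13 were higher with Epo at 0 h, with a median difference of 0.389 at 0 h, 0.244 at 1 h, 0.421 at 3 h and 0.529 at 7 h. The same 13 were higher with Epo at 7 h. Psma7 differed by 0.70 at 0 h, Psmb6 by 0.54, Psmb1 by 0.52 and Psma6 by 0.49. With each gene's own 0 h difference subtracted, the median over the core genes was 0.0528, below that of the regulatory genes (0.385) and of the immunoproteasome genes (0.212), and that over all genes was 0.0090. This order did not hold within the classes. The median was 0.231 over the alpha and 0.025 over the beta genes, and 0.447 over the base and 0.208 over the lid genes. A limma fit of the 8 matched differences at 0 to 7 h tested the mean difference at 1 to 7 h minus the difference at 0 h, with a linear trend within 1 to 7 h kept out of the scatter. In it 0 of 49 members were called, 13 had an unadjusted p under 0.05, and 0.852% of all genes were called. That fit rests on 1 pair of 0 h arrays. The members with the lowest adjusted p in it were Psmc1 (0.98 ± 0.24, adjusted p = 0.0712), Psmf1 (-0.95 ± 0.24, adjusted p = 0.0726) and Psmg1 (0.90 ± 0.22, adjusted p = 0.0729).

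**Figure D2:**
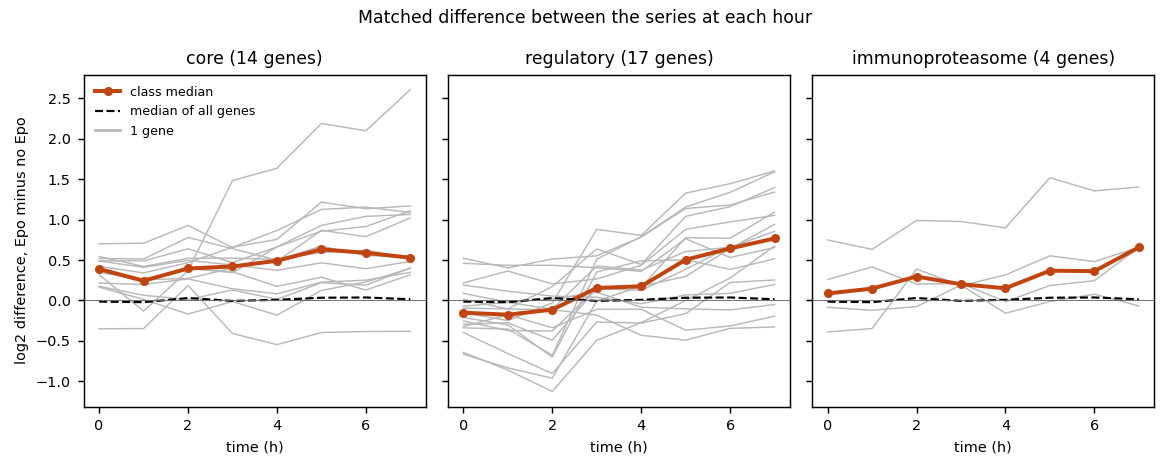
Log2 difference with Epo minus without Epo at each hour (horizontal axis, h) for the core, regulatory and immunoproteasome genes, with 1 grey line per gene, the class median in colour and the median of all genes dashed. The core median was 0.389 at 0 h and 0.529 at 7 h, whereas the regulatory median was -0.151 at 0 h and 0.767 at 7 h.

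At 0 h the median difference of the regulatory genes lay below 0 and that of the core genes above 0. For the regulatory genes it was -0.151 at 0 h, -0.176 at 1 h and -0.114 at 2 h, then 0.155 at 3 h, 0.504 at 5 h and 0.767 at 7 h. Neither class was uniform. From 0 h to 7 h the median went from 0.422 to 1.06 over the alpha genes and from 0.347 to 0.519 over the beta genes. It went from -0.255 to 0.855 over the base genes and from -0.040 to 0.585 over the lid genes. Of the 17 regulatory genes 10 were lower with Epo at 0 h and higher with Epo at 7 h, which held for 0 of 14 core genes and for 22.0% of all genes. The mean over 1 to 7 h therefore joins differences of opposite sign, and 9 of the 17 were not called in it. Whether the classes differed in timing was not tested, since the classes were chosen with results of these data known.

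Psmd1 encodes the large scaffold of the base. With Epo it read 9.92 at 0 h, 10.10 at 1 h, 9.72 at 2 h, 10.12 at 3 h, 10.06 at 5 h and 10.40 at 7 h. Without Epo it read 10.25 at 0 h, 10.46 at 1 h, 10.40 at 2 h, 9.61 at 3 h, 8.90 at 5 h and 8.81 at 7 h. It was thus lower with Epo up to 2 h and higher from 3 h onward, and the slope of the matched difference was 0.38 ± 0.05 per hour (adjusted p = 0.000521). Psmc1, an ATPase of the base, differed by -0.25 at 1 h, -0.03 at 2 h, 0.88 at 3 h and 1.60 at 7 h, with a slope of 0.32 ± 0.04 per hour (adjusted p = 0.000621). Its mean difference at 1 to 7 h, 0.83 ± 0.21 (adjusted p = 0.00854), was called. Psmd3, a lid subunit, had a mean difference of 0.04 ± 0.21 (adjusted p = 0.909) but differed by -0.96 at 2 h and 0.94 at 7 h, with a slope of 0.32 ± 0.04 per hour (adjusted p = 0.000521). Psmd2, the other scaffold of the base, differed by -1.13 at 2 h and 0.67 at 7 h (slope 0.28 ± 0.04 per hour, adjusted p = 0.000802).

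A few regulatory genes kept 1 direction at 1 to 7 h. Psmd14, the lid's deubiquitinase, lay between 12.47 and 12.59 (median 12.56) with Epo and between 11.23 and 12.10 (median 11.74) without, a difference of 0.84 ± 0.11 (adjusted p = 0.000127), and the series did not overlap. Psmd13, a lid subunit (0.51 ± 0.07), and Psmc6, an ATPase (0.60 ± 0.11), were also apart on every array. At 0 h the differences were already 0.52 for Psmd14, 0.46 for Psmd13 and 0.22 for Psmc6. Psmd8 and Psmd11, both of the lid, were called lower with Epo, by -0.28 ± 0.07 and -0.23 ± 0.06 (adjusted p = 0.00646 and 0.0129). Psmd11 depended on its probe set: another of its probe sets differed by 0.89. Psmd12, a lid subunit, and Psmd4, a ubiquitin receptor of the base, were lower with Epo at 1 h and higher at 7 h, and their means were called higher, by 0.68 ± 0.16 and 0.40 ± 0.11.

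**Figure D3:**
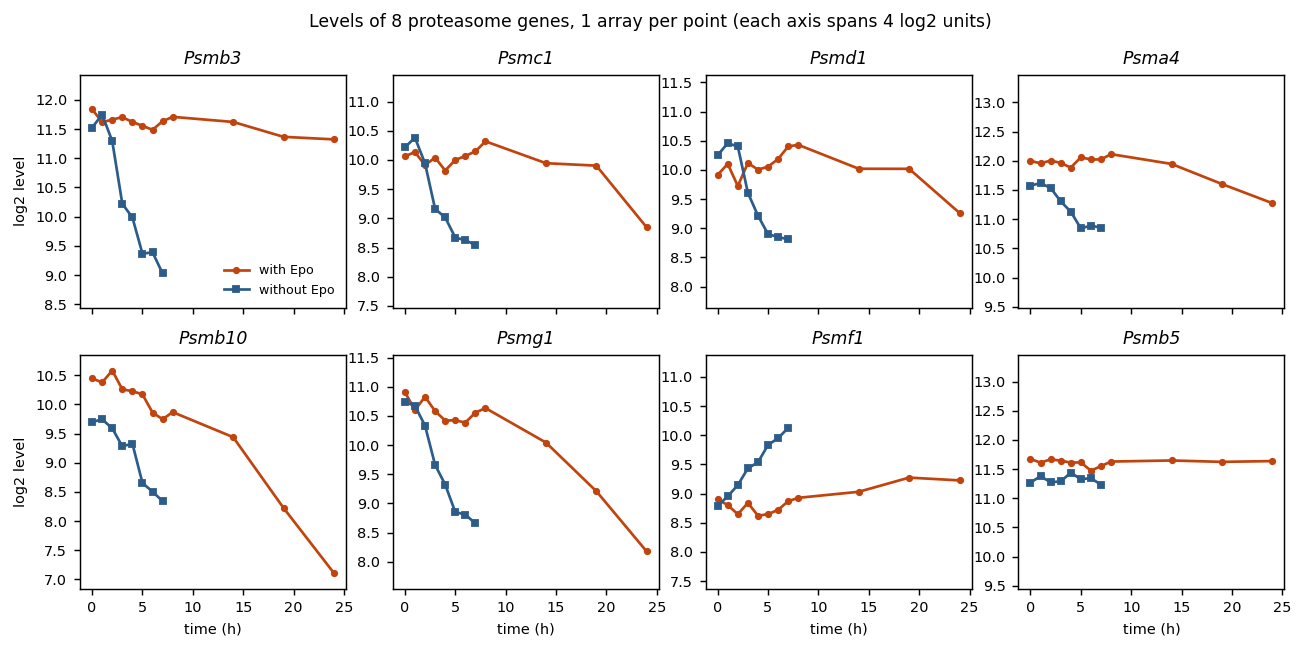
Log2 level of 8 proteasome genes against time (h), with 1 array per point, Epo in orange circles and no Epo in blue squares; each vertical axis spans 4 log2 units. Psmb3, Psmc1, Psmd1, Psma4, Psmb10 and Psmg1 fell without Epo, Psmf1 rose, and Psmb5 stayed between 11.23 and 11.44 from 1 to 7 h without Epo.

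Across the classes, the difference between the series moved upward with time for 18 members and downward for 2 (12.8% of all genes were called, 6.44% upward and 6.34% downward). Of these 18, 12 were among the 17 regulatory genes, with 8 of 9 base genes and 4 of 8 lid genes, and 4 were among the 14 core genes. The steepest were Psmb3 (0.44 ± 0.06 per hour, adjusted p = 0.000482), Psmd1, Psmc1, Psmd3 and Psmg1 (0.31 ± 0.04 per hour, adjusted p = 0.000521). The 2 downward slopes belonged to Psmf1 (-0.19 ± 0.04 per hour, adjusted p = 0.0106) and Psmd9 (-0.18 ± 0.04 per hour, adjusted p = 0.00901). Over all genes the median slope was -0.000337 per hour.

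More proteasome genes were called as changed over time without Epo than with it. Without Epo 29 members fell and 7 rose over 0 to 7 h, against 15.4% of all genes that fell and 13.3% that rose (28.7% together). With Epo over the same hours, Psma8 and Psmb10 fell and Psme3 rose, against 5.88% and 2.21% of all genes (8.09% together). The levels of 38 members ranged more widely at 0 to 7 h without Epo than at 0 to 8 h with Epo, which held for 48.0% of all genes. Without Epo 12 members were at least 2-fold lower at 7 h than at 0 h (5.98% of all genes), and with Epo only the testis subunit Psma8 was (3.24% of all genes). Markers of other cell types moved over the same hours. Hepatocyte markers fell in 9 of 9 genes with Epo (median slope -0.314 per hour) and in 9 of 9 without (-0.279 per hour). Granulocyte markers fell in 2 of 9 genes with Epo and in 5 of 9 without, among them Mpo, the granule enzyme myeloperoxidase, which without Epo read 6.43 at 7 h and 9.88 at 0 h. Of the 9 erythroid markers 3 rose and 1 fell with Epo, and 5 rose and 0 fell without. Their part in the falls of proteasome genes was not tested.

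Without Epo, 13 of 17 regulatory genes fell, 7 of 14 core genes fell, and 4 of 4 immunoproteasome genes fell. The fall of Psmb3 was the steepest: it read 11.53 at 0 h, 11.75 at 1 h, 11.30 at 2 h, 10.22 at 3 h, 9.99 at 4 h, 9.37 at 5 h, 9.39 at 6 h and 9.03 at 7 h, a slope of -0.42 ± 0.04 per hour (adjusted p = 1.91e-05). Psmc1 read 10.22 at 0 h, 10.38 at 1 h, 9.94 at 2 h, 9.16 at 3 h, 9.02 at 4 h, 8.67 at 5 h, 8.62 at 6 h and 8.55 at 7 h (slope -0.29 ± 0.03 per hour, adjusted p = 5.79e-05). Both held their level for 1 h and were well below it from 3 h onward. For the 13 regulatory genes that fell, the median step was 0.155 between 0 and 1 h, -0.055 between 1 and 2 h and -0.448 between 2 and 3 h, and 7 of them had their largest hourly fall between 2 and 3 h. The next largest median step, -0.311, lay between 4 and 5 h. Psmd1 (-0.27 ± 0.03 per hour), Psmd3 (-0.24 ± 0.02) and Psmc5, an ATPase (-0.19 ± 0.02), followed in slope. The regulatory genes Psmd8 (0.07 ± 0.02 per hour, adjusted p = 0.0124) and Psmd11 (0.05 ± 0.01 per hour, adjusted p = 0.0138) rose.

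The core genes that fell without Epo besides Psmb3 had shallower slopes. Psma4 fell by 0.13 per hour (-0.13 ± 0.02), and read 10.85 at 7 h against 11.58 at 0 h. Psmb4 (-0.12 ± 0.02 per hour), Psma5 (-0.11 ± 0.01) and Psma3 (-0.09 ± 0.01) fell likewise, all with adjusted p-values between 0.000128 and 0.000633. Psmb5 (0.00 ± 0.01 per hour, adjusted p = 0.96) and Psma6 (0.00 ± 0.01 per hour, adjusted p = 0.988) were not called, so that their difference between the series was about as large at 0 h, 0.40 and 0.49, as at 7 h, 0.32 and 0.48.

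Because regulatory genes fell together without Epo, their promoter windows were searched for short motifs. RefSeq windows of 300 bases on GRCm38.p6, 250 before to 50 after the start, were matched by symbol for 41 of 49 members, and 27025 genes had one. Where a gene had several windows, only the first listed was searched. The ETS core CCGGAAG, searched on both strands, was found in 14 of 41 member windows (34.1%) and in 9.12% of all windows: in 9 of 14 regulatory, 0 of 11 core and 0 of 4 immunoproteasome windows. The motif was not confined to the regulatory genes: the windows of Psmg1, Psmg3, Psme3, Psme4 and Psmc3ip held it too. The stretches of the 9 regulatory genes are shown because no core window held the motif. Each runs 5′ to 3′ on the strand of its gene, with the motif or its reverse complement in capitals, on GRCm38.p6:
Psmc1, chr12:100110157-100110197, plus strand: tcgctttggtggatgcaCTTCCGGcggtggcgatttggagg
Psmc2, chr5:21785174-21785214, plus strand: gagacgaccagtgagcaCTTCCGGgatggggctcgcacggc
Psmc6, chr14:45329707-45329747, plus strand: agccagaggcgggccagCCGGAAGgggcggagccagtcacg
Psmd2, chr16:20651609-20651649, plus strand: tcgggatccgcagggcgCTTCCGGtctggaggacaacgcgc
Psmd4, chr3:95042716-95042756, minus strand: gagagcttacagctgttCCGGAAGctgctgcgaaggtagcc
Psmd6, chr14:14120967-14121007, minus strand: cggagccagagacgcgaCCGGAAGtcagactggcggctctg
Psmd11, chr11:80428587-80428627, plus strand: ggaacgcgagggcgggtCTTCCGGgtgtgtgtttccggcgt
Psmd12, chr11:107479494-107479534, plus strand: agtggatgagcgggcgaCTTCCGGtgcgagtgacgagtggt
Psmd13, chr7:140882371-140882411, plus strand: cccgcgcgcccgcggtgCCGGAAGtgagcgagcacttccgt

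All 9 matches began upstream of the annotated start, 6 to 125 bases before it, and that of Psmd13 ran across it. The 9 genes did not move alike: without Epo 7 of them fell and 1 rose, with slopes of -0.291 to 0.049 per hour. Of the 5 regulatory genes whose windows lacked these letters 4 fell and 1 rose, with slopes of -0.274 to 0.065 per hour, so the ranges overlapped. The CCAAT box was found in 15 of 41 member windows (36.6%) and in 37.9% of all windows. The core of the antioxidant response element, TGACNNNGC, which the proteasome regulators NRF1 and NRF2 bind, was found in 6 member windows (14.6%) and in 12.5% of all windows. The interferon-stimulated element was found in 5 (12.2%, against 3.49% of all windows) and the STAT element TTCNNNGAA in 3 (7.32%, against 8.47%). Of the 4 immunoproteasome windows 1 held the interferon-stimulated element, that of Psme1, and 1 the STAT element, that of Psmb8. These matches describe letters in the windows and show no binding.

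The whole windows of Psmb3 and Psmc1 are given because these genes fell most steeply in the core and in the regulatory particle; capitals mark the CCAAT box in Psmb3 and the CCAAT box followed by the ETS core in Psmc1, both 5′ to 3′ on the plus strand of GRCm38.p6:
Psmb3, chr11:97703184-97703483: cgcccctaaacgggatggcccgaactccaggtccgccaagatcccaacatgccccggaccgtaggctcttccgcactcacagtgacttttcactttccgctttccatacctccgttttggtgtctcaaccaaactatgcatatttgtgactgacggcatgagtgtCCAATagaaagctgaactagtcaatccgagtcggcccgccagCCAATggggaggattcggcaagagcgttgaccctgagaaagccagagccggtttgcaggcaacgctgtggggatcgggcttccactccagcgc
Psmc1, chr12:100109952-100110251: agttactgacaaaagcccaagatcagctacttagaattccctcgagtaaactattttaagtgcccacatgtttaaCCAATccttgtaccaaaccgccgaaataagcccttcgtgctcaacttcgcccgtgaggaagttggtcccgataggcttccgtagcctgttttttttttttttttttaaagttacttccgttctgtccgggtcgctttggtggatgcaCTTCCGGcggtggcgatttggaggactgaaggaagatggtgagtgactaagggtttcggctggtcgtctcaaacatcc

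Of the immunoproteasome genes, Psmb10 did not overlap between the series at 1 to 7 h, whereas each of the other 3 had a call that was lost under several alternatives. Psmb10, the inducible counterpart of Psmb7, was the catalytic gene of the class with a signal above the median of all genes. It lay between 9.74 and 10.58 (median 10.23) with Epo and between 8.34 and 9.74 (median 9.28) without; the series did not overlap, but the lowest array with Epo and the highest without both rounded to 9.74. It gave a difference of 1.11 ± 0.11 (adjusted p = 1.91e-05). Its difference was 0.75 at 0 h and 1.40 at 7 h. Psmb10 fell in both series over 0 to 7 h, by 0.10 per hour with Epo (-0.10 ± 0.02, adjusted p = 0.00461) and by 0.22 per hour without (-0.22 ± 0.03, adjusted p = 7.18e-05).

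Psmb8 and Psmb9, the inducible counterparts of Psmb5 and Psmb6, gave dim signals. Psmb8 lay between 4.39 and 5.10 (median 4.56) with Epo and between 3.73 and 4.91 (median 4.40) without, with overlap, a difference of 0.32 ± 0.11 (adjusted p = 0.0443). Psmb9 lay between 4.65 and 5.31 (median 4.87) with Epo and between 4.22 and 4.90 (median 4.66) without, a difference of 0.27 ± 0.09 (adjusted p = 0.0335). Both probe sets were below the median of all genes, so these differences are small changes of faint signals. Psme1, a subunit of the interferon-inducible activator, lay between 9.10 and 9.50 (median 9.31) with Epo and between 9.17 and 9.51 (median 9.31) without and was not called (-0.02 ± 0.08, adjusted p = 0.838). Without Epo the slopes were -0.23 ± 0.02 per hour for Psmb8, -0.07 ± 0.02 for Psmb9 and -0.05 ± 0.02 for Psme1 (adjusted p = 4.76e-05, 0.0428 and 0.0257). The difference between the series lost its call in 11 of 15 alternatives for Psmb8 (adjusted p up to 0.647) and in 7 of 16 for Psmb9 (up to 0.993). These include the fit without the time block and, for Psmb8, leaving out any single time other than 1 h. The slope without Epo lost its call in 9 of 14 alternatives for Psmb9 (adjusted p up to 0.311) and in 6 of 15 for Psme1 (up to 0.0865), and in 0 of 13 for Psmb8.

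The assembly chaperones of the core did not move as a unit between the series. Psmg4 had the largest mean difference of all 49 members: it lay between 10.11 and 10.63 (median 10.28) with Epo and between 8.13 and 9.05 (median 8.76) without, with no overlap, a difference of 1.64 ± 0.11 (adjusted p = 1.44e-06). Most of it was present at 0 h, where Psmg4 read 10.22 with Epo and 9.05 without. Psmg1, which pairs with Psmg2 to assemble the alpha ring, lay between 10.38 and 10.83 (median 10.56) with Epo and between 8.66 and 10.67 (median 9.32) without, a difference of 1.07 ± 0.20 (adjusted p = 0.00131). It differed by 0.17 at 0 h and 1.90 at 7 h, and fell without Epo by 0.34 per hour (-0.34 ± 0.03, adjusted p = 1.45e-05). Psmg2 went the other way: it lay between 9.70 and 10.26 (median 9.91) with Epo and between 10.37 and 10.56 (median 10.44) without, with no overlap, a difference of -0.50 ± 0.08 (adjusted p = 0.000318). Psmg3 (0.13 ± 0.08, adjusted p = 0.247) was not called.

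Of the chaperones of the regulatory particle, Psmd10 was higher with Epo by 0.64 ± 0.09 with no overlap between the series (adjusted p = 0.000248), and Psmd5 by 0.33 ± 0.10 (adjusted p = 0.0267), a call lost in 6 of 17 alternatives. The difference of Psmd10 was already 0.74 at 0 h and was 0.37 at 7 h. Psmd9 lay between 8.87 and 9.28 (median 8.98) with Epo and between 9.14 and 9.82 (median 9.61) without, a difference of -0.49 ± 0.13 (adjusted p = 0.0123). At 0 h the series were apart by 0.02 only, and Psmd9 rose without Epo by 0.11 ± 0.02 per hour (adjusted p = 0.000426). Psmd10 rose without Epo as well (0.07 ± 0.02 per hour, adjusted p = 0.0293), a call lost in 4 of 14 alternatives.

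Psmf1, which encodes an inhibitor of the proteasome, had the largest difference among the members that were lower with Epo. With Epo it read 8.90 at 0 h and lay between 8.62 and 8.87 (median 8.72) from 1 to 7 h. Without Epo it read 8.79 at 0 h, 8.95 at 1 h, 9.15 at 2 h, 9.43 at 3 h, 9.54 at 4 h, 9.83 at 5 h, 9.95 at 6 h and 10.13 at 7 h, higher at every successive hour. The difference was -0.83 ± 0.14 (adjusted p = 0.000575) and the slope without Epo 0.20 ± 0.02 per hour (adjusted p = 1.48e-05). It was the 1 member at least 2-fold higher at 7 h than at 0 h without Epo (5.12% of all genes). Its 3 other probe sets had mean differences of -1.57 to -2.05.

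The activators Psme3 and Psme4 were not called between the series (-0.18 ± 0.07, adjusted p = 0.0772, and -0.02 ± 0.18, adjusted p = 0.932). Psme3 depended on its probe set in size: another, with a mean level of 9.56 against 9.75 for the set used, differed by -0.52. Psme4, the activator PA200, differed by -0.66 at 1 h and 0.59 at 7 h, with a slope of the difference of 0.24 ± 0.05 per hour (adjusted p = 0.00454). Psme3, the nuclear activator, rose in both series, by 0.08 ± 0.02 per hour with Epo (adjusted p = 0.0132) and 0.06 ± 0.02 per hour without (adjusted p = 0.035), calls lost in 4 of 16 and 7 of 15 alternatives. Of the members by symbol only, Psmc3ip (0.63 ± 0.08) and Psma8 (0.54 ± 0.13) were called higher with Epo and Psme3ip1 lower (-0.66 ± 0.11). At 0 h the differences were already 0.49 for Psmc3ip, 0.17 for Psma8 and -0.36 for Psme3ip1. Psma8 fell in both series, by 0.19 per hour with Epo (-0.19 ± 0.03, adjusted p = 0.00204) and by 0.30 per hour without (-0.30 ± 0.03, adjusted p = 7.69e-05). Psmb11 had a dim signal and was not called between the series.

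**Figure D4:**
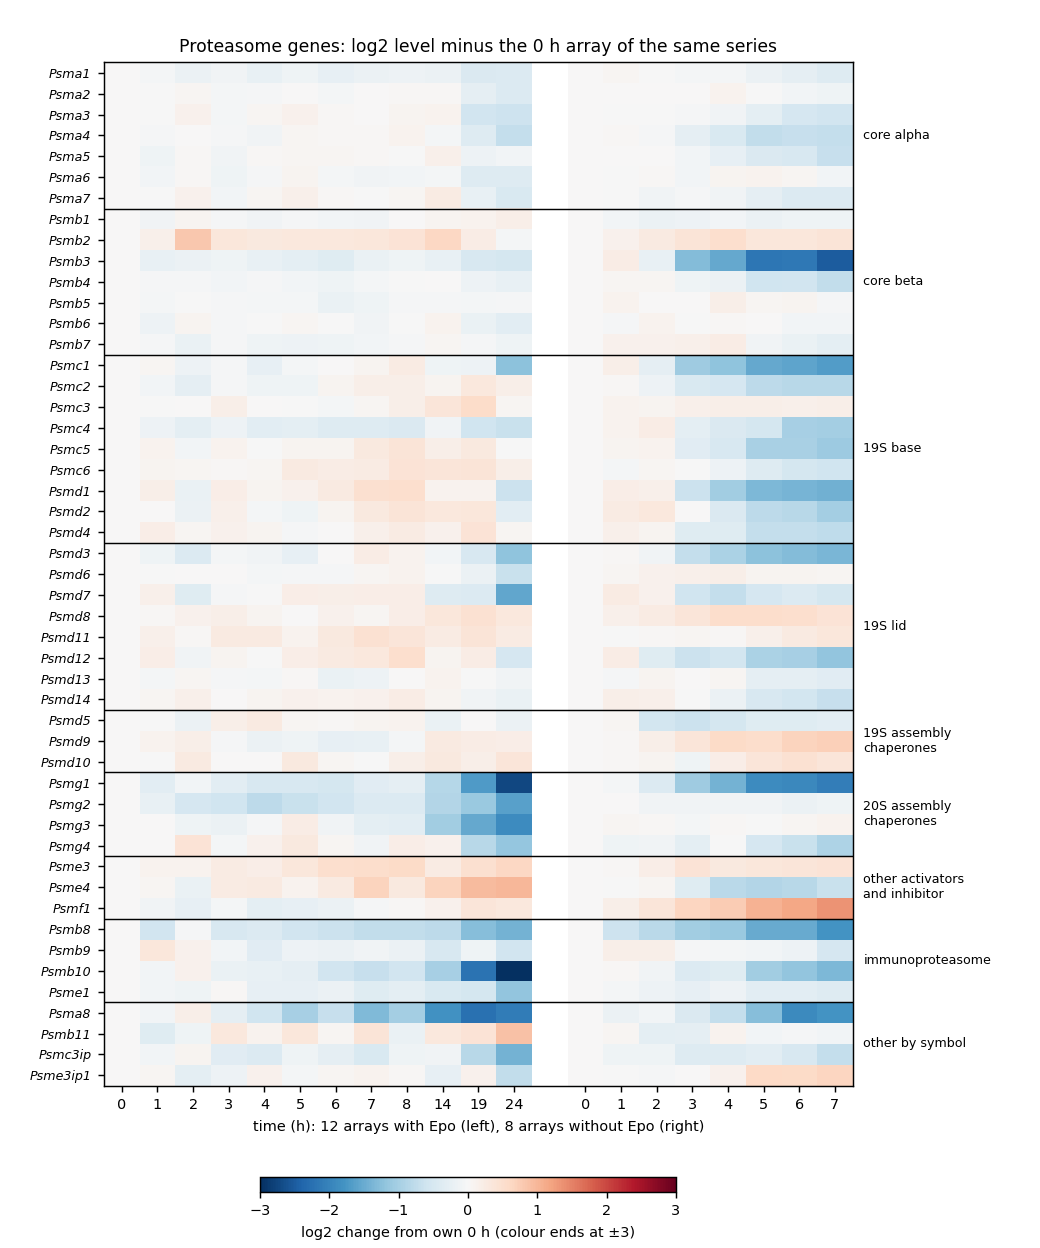
Log2 level of each of the 49 genes minus the 0 h array of its own series, for 12 arrays with Epo (left) and 8 without (right), genes grouped by class. Without Epo most rows of the 19S base turn blue from 3 h onward, Psmb3 down to 2.50 below its 0 h level, and Psmf1 turns red; with Epo the darkest cells stand at 19 and 24 h, among them Psmb10, Psma8 and the 20S assembly chaperones.

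With Epo, levels late in the culture were set against the early hours, and this comparison concerns time only since no arrays without Epo were taken after 7 h. The mean of 14, 19 and 24 h was called lower than that of 1 to 8 h for 15 members and higher for 5, while 36.2% of all genes were called, 18.5% lower and 17.6% higher. All 4 assembly chaperones of the core and 3 of 4 immunoproteasome genes fell, whereas 3 of 14 core genes and 3 of 17 regulatory genes did. The 3 late arrays lay wholly below the 8 early ones for 8 members (14.3% of all genes) and wholly above for 4 (11.8% of all genes). Hepatocyte markers fell in the same comparison in 8 of 9 genes (median change -3.07), and the log2 of their summed level was 8.64 to 11.22 at 14 to 24 h. Of the 9 granulocyte markers 5 rose and 3 fell, of the 9 erythroid markers 5 rose and 1 fell, and 5 of 7 dendritic, 3 of 10 macrophage and 3 of 8 lymphoid markers rose. Their part in the late changes of proteasome genes was not tested.

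Psmb10 read 9.44 at 14 h, 8.22 at 19 h and 7.11 at 24 h, against 9.74 to 10.58 (median 10.20) at 1 to 8 h, a change of -1.88 ± 0.33 (adjusted p = 0.000531). Psmg1 read 10.04 at 14 h, 9.21 at 19 h and 8.18 at 24 h, against 10.38 to 10.83 (median 10.57) early (-1.41 ± 0.25, adjusted p = 0.000654). Psmg3 read 9.15 at 14 h, 8.65 at 19 h and 8.30 at 24 h, against 9.88 to 10.41 (median 10.07) early (-1.39 ± 0.16, adjusted p = 2.97e-05). In these 3 genes each late array lay below every early one and below the late array before it. Psmg2 (-0.69 ± 0.15) and Psmg4 (-0.74 ± 0.20) fell as well, as did Psma8 (-1.45 ± 0.26), Psmb8 (-0.63 ± 0.16) and Psme1 (-0.53 ± 0.15). Psmd7, a lid subunit, read 10.11 at 14 h, 10.09 at 19 h and 8.94 at 24 h, against 10.14 to 10.70 (median 10.66) early (-0.84 ± 0.20, adjusted p = 0.00513).

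Core subunit genes stayed closer to their early level: Psma3 (-0.42 ± 0.12), Psma4 (-0.40 ± 0.11) and Psma6 (-0.23 ± 0.08) fell, and the other 11 were not called, Psmb5 with 11.65, 11.62 and 11.64 at 14, 19 and 24 h against 11.47 to 11.67 (median 11.61) early. Psme4 rose, with 10.06 at 14 h, 10.34 at 19 h and 10.40 at 24 h against 9.20 to 10.05 (median 9.65) early (0.66 ± 0.15, adjusted p = 0.00306). Psmf1 rose by 0.42 ± 0.11, Psmb11 by 0.47 ± 0.17, Psmc3 by 0.28 ± 0.10 and Psmd8 by 0.26 ± 0.08. The late calls leaned on single arrays, and those of Psmd6, Psmd3, Psmc3ip, Psmc3 and Psmb11 were lost in 12 or more of 18 or 19 alternatives. Without the 24 h array 6 of the 15 falls were still called (Psma8, Psmb10, Psmd7, Psmg1, Psmg2 and Psmg3), and without the 19 h array 1 of the 5 rises (Psme4) was. Without the 14 h array 23 members were called lower, and without the 4 h or the 6 h array 3 were called higher.

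Partners of the proteasome outside the Psm symbols showed no common direction, and genes of neighbouring pathways were called lower with Epo more often than higher; the shares over all genes were 18.2% higher and 20.2% lower. Of 11 measured partner genes 2 were called higher with Epo at 1 to 7 h, Ube3c (0.62 ± 0.12), a proteasome-bound ubiquitin ligase, and Txnl1 (0.52 ± 0.07), a proteasome-bound thioredoxin. Another 3 were lower, Akirin2 (-1.03 ± 0.15), which brings proteasomes into the nucleus, Zfand5 (-0.48 ± 0.13) and Usp14 (-0.27 ± 0.08), a proteasome-bound deubiquitinase. These counts lie near the shares over all genes. Of 11 shuttle and unfoldase genes 0 were higher and 6 lower, among them Vcp (-0.65 ± 0.11), the unfoldase that extracts ubiquitinated proteins, and its cofactors Faf2 (-0.61 ± 0.12) and Nploc4 (-0.56 ± 0.11). At 0 h 9 of the 11 were already lower in the series with Epo, while 48.4% of all genes were higher. The 0 h differences were -0.66 for Vcp, -0.68 for Nploc4 and 0.03 for Faf2. With the own 0 h difference subtracted, the median over this list was 0.119. Of 8 regulators of NRF1 and NRF2 or these factors themselves, which drive proteasome genes when proteasome activity is short or under oxidative stress, 0 were higher and 4 lower, Nfe2l2 (-0.60 ± 0.13), Keap1 (-0.47 ± 0.12), Ngly1 (-0.36 ± 0.12) and Nfe2l1 (-0.27 ± 0.09). At 0 h 6 of the 8 were already lower in the series with Epo. The 0 h differences were -0.49 for Nfe2l2, -0.61 for Keap1, 0.18 for Ngly1 and -0.43 for Nfe2l1. With the own 0 h difference subtracted, the median over these 8 was -0.119. The ubiquitin-activating enzyme gene Uba6, the 1 gene of its list analysed here, was higher by 0.59 ± 0.14.

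Of 14 genes that regulate the immunoproteasome or process antigen, 1 was higher with Epo and 5 lower (18.2% and 20.2% of all genes), with Tapbp (-1.83 ± 0.27), Irf2 (-1.01 ± 0.15) and Tap2 (-0.53 ± 0.08) the lowest and Nlrc5 (0.35 ± 0.09), at 2.15 to 2.89 with Epo and 2.05 to 2.41 without, the higher one. Tapbp and Tap2 serve peptide loading for antigen presentation. At 0 h 11 of the 14 were already lower in the series with Epo. The 0 h differences were -0.49 for Tapbp, -0.06 for Irf2 and -0.28 for Tap2. Of 11 heat shock genes, cytosolic except for the mitochondrial Hspd1 and Hspe1, 1 was higher and 6 lower. The higher one was Hspe1. At 0 h 8 of the 11 were lower in the series with Epo. The inducible chaperone gene Hspa1a was lower by 1.95 on average (-1.95 ± 0.31), although at 0 h it had been 3.06 higher in the series with Epo. Of 9 ubiquitin enzyme genes of erythroid maturation 0 were higher and 3 lower at 1 to 7 h, Ube2h most (-1.24 ± 0.18). At 0 h 7 of the 9 were lower in the series with Epo, and Ube2h differed by -0.26. Late with Epo 5 of these 9 rose and 2 fell (17.6% and 18.5% of all genes), with Ube2h (2.08 ± 0.27), Ube2l6 (2.08 ± 0.21) and Trim10 (1.78 ± 0.23) ahead, over hours in which 15 proteasome genes fell.

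Several members were measured by more than 1 probe set, 27 of the 49. Among members called between the series, 14 had another probe set above the median of all genes, and 20 of 24 such probe sets differed in the same direction. For time without Epo 22 of 27 did, over 17 members, and late against early with Epo 9 of 11, over 8 members. These counts take the sign only, whatever the size. The other probe set of Psmb4 differed by 0.0017 between the series, against 0.5845 for the set used. A further set of Psmc6 changed by -0.0136 from 0 to 7 h without Epo, against -0.5891 for the set used. The other probe set of Psmb3 differed by 1.67 between the series and was 2.36 lower at 7 h than at 0 h without Epo, as against 1.46 and 2.50 for the probe set used. Psmd11 and Psmd13 had a further set in the other direction between the series, Psmd11, Psmd4 and Psmd7 over time without Epo, and Psmf1 late with Epo.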

How the data were processed

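RNA of 20 samples was hybridised to 1 mouse expression array each, after biotin labelling per the labels' protocols. The authors deposited log2 values, a scale inferred from their range (1.37 to 14.6). Their method of summarising and scaling the arrays is not given in these sources. Of 45101 probe sets, 34945 named 1 gene in the platform annotation, 932 several and 9224 none. No filter on dim genes was used. Depth has no counterpart on arrays, and their number limits the precision.

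The fits used limma 3.58.1 in R 4.3.3 (empirical Bayes with trend) on all 18193 genes, and p-values were adjusted over them by Benjamini-Hochberg, with calls at 0.05. The Epo effect was the mean of 7 matched differences, with time as a block, and its change the slope of these differences. Time effects were slopes over 8 arrays. The late comparison set 14, 19 and 24 h against 1 to 8 h. The fits were tested on simulated data with independent noise on each array and, apart from the changes put in, no drift or difference between the series. That simulation therefore cannot cover scatter shared by neighbouring hours or a difference already present at 0 h. Promoter windows and gene names are RefSeq's, of GRCm38.p6. Tables were made with pandas 2.3.3 and numpy 2.4.6 and plots with matplotlib 3.10.9 under Python 3.11.15.

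The members, classes, gene lists and tests were chosen with earlier results of these data known. Named were all immunoproteasome genes, per class and comparison up to 4 called members with the largest rise and fall, and up to 4 genes per list; Psmb5, Psmb6 and Psmb7 were named as counterparts of immunoproteasome genes. Members beyond these, such as Psma2 and Psmd4, members not called and marker genes were named after their values were seen. Alternatives were other scalings, probe set choices, variance models and sets of times.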

Additional observations from a re-analysis of the deposited data

Results flagged for a closer look

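Under the slope of the matched difference, the series with and without Epo moved differently over 1 to 7 h for 20 members, each at an adjusted p under 0.05 over all genes; 12.8% of all genes were called. Positive slopes mean that the level with Epo gained on that without. Per hour on the log2 scale the slopes of the 19S base were 0.38 for Psmd1, 0.32 for Psmc1, 0.28 for Psmd2, 0.26 for Psmc5, 0.21 for Psmc2, 0.18 for Psmc4, 0.16 for Psmd4 and 0.15 for Psmc6. Those of the lid were 0.32 for Psmd3, 0.25 for Psmd12, 0.17 for Psmd14 and 0.17 for Psmd7. The call of Psmd7 was lost in 7 of 13 alternatives, with slopes of 0.0452 to 0.2051 and adjusted p-values up to 0.558; the lowest slope came from the mean of all its probe sets, and without the 2 h pair it was 0.1166. In the core they were 0.44 for Psmb3, 0.16 for Psma4, 0.15 for Psma5 and 0.14 for Psmb4. Beyond these classes they were 0.31 for the assembly chaperone Psmg1 and 0.24 for the activator Psme4, against -0.19 for the inhibitor Psmf1 and -0.18 for the chaperone Psmd9. The calls of Psmb4, Psmc6 and Psmd9 were lost in 4, 3 and 2 of 13 alternatives. By Dixon's test 0 of 49 members had an array standing apart from the other 7 without Epo. Chance alone gives about 1 in 20 where levels have no trend. Without Epo 29 members fell and 7 rose, and a trend widens the range that the test uses. The test therefore cannot exclude a deviating array.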

How the results depend on the processing

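With each gene's own 0 h difference subtracted and no drift allowed, 0 members were called higher and 0 lower with Epo, against 26 and 7. Under that setting Psma6 (-0.051), Psmb5 (-0.135), Psmb6 (-0.015), Psmd10 (-0.108), Psmb2 (0.025) and Psmd11 (0.094) turned in sign, none of them called. With the mean of all probe sets per gene Psmd11 turned to 0.155 with Epo and to -0.025 per hour without Epo, Psmf1 to -0.0024 late with Epo, and 1 member in place of 2 had a downward change of the Epo effect. Without probe sets of a cross-hybridising suffix Psmd13 turned to -0.014 with Epo and Psmd11 to -0.047 per hour without. The fit from the own 0 h called 3 members higher and 1 lower with the brighter genes only, and 1 lower without the variance trend. Over 0 to 7 h with Epo the count of rises was 3 after quantile normalization, 4 after median centring, 2 with the brighter genes, 0 over 1 to 7 h and 4 over 0 to 8 h. Late with Epo, median centring left 3 rises, early hours of 5 to 8 h left 1 rise and 7 falls, and leaving out the 2 h and 24 h arrays left 7 falls. The immunoproteasome median between the series was 0.543 over its 2 brighter members. When each time was left out in turn, the counts ranged as follows. The downward changes of the Epo effect numbered 0 to 2. The calls from the own 0 h were 0 to 6 higher, with 6 without the 1 h pair and 3 without the 2 h pair, and 0 to 1 lower. Rises without Epo numbered 4 to 7, with 4 without the 6 h or the 7 h array. Rises with Epo numbered 0 to 3, with 0 without the 0 h or the 6 h array and 3 without the 5 h array, and falls with Epo 2 to 4, with 4 without the 7 h array. Late rises numbered 1 to 5 and late falls 6 to 23. The causes of these changes were not tested. Without the time block 23 members were called higher and 7 lower with Epo. All other alternatives left these counts within 1.5 times. Array number and dim signals, as of Psmb8, Psmb9 and Psmb11, limit what can be detected.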
